A study of Mus musculus with 7 samples.

Results

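Transcripts of 9 secreted inhibitors of Wnt signalling were described in the mouse adrenal gland from the end of gestation to adulthood. The genes were Frzb, Sfrp1, Sfrp2, Sfrp4, Sfrp5, Dkk1, Dkk2, Dkk3 and Wif1, found by symbol among the 35976 genes of the deposited table, and all 9 were present. The set was chosen by the deposited values of Frzb, which diverged between the male and female pools at 12 weeks. That divergence, and every other male-to-female value at 12 weeks, is therefore given as a description and carries no test. RNA from pooled whole adrenals had been sequenced, and all pools came from the inbred strain C57BL/6J, with no added allele or treatment named in the labels. The 7 groups were E18.5 (late gestation, 40 glands, sex not determined), P1 male (postnatal day 1, 16 glands), P1 female (22 glands), 2-week male (6 glands), 2-week female (6 glands), 12-week male (4 glands) and 12-week female (4 glands). Each group was 1 pool and 1 library. A pool averages its animals, so the spread between animals was not measured, and in whole glands fewer cells of a type cannot be told apart from less RNA per cell.

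Wnt proteins are secreted signals that bind Frizzled receptors and the co-receptors Lrp5 and Lrp6, and in the canonical branch of the pathway this stabilises beta-catenin. Secreted Frizzled-related proteins, the family of Frzb (also called Sfrp3) and the Sfrp genes, carry a cysteine-rich domain like that of Frizzled and bind Wnts outside the cell. Dkk1 and Dkk2 act instead on Lrp5 and Lrp6, Dkk3 is a divergent member of the Dickkopf family, and Wif1 binds Wnts through its own WIF domain. In the adrenal cortex canonical Wnt signalling is known to be strongest in the outer zone, beneath the capsule, while the X-zone is an inner cortical layer of the mouse that regresses in males around puberty.

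Library depth and identity were checked before the values were read. The 7 libraries held between 15184210 and 23551289 reads on genes. All 10 adrenal cortex markers and all 10 chromaffin cell markers had reads in all 7 libraries, so the defining markers of the labelled tissue were present. The library labelled P1 female held Y-linked transcripts: over Ddx3y, Eif2s3y, Kdm5d and Uty its level was a median of 21.0% of P1 male (range 15.6 to 28.1%), against 0.0609% at 2 weeks and 0.0132% at 12 weeks. Counts of age calls are given with and without it. Adjoining tissue also differed between the P1 libraries. The 8 exocrine pancreas markers summed to 6505 (P1 male) and 103.8 (P1 female) normalized counts, the 8 kidney markers to 9039 and 2476, the 7 Schwann cell markers to 1972 and 6765, and the 8 skeletal muscle markers to 71383 and 141536. In both 12-week libraries the pancreas markers summed to 3.39 or less and the kidney markers to 44.1 or less. Liver transcript was higher than any of these early on. The 8 liver markers summed to 367727 (E18.5), 461834 (P1 male) and 304848 (P1 female), and by 12 weeks to 8044 (male) and 6208 (female). Most of the 12-week sums was Trf alone, at 7610 (male) and 5790 (female), while Alb was at 247.5 and 157.3. The 10 adrenal cortex markers summed to 632157 (E18.5), 436541 (P1 male) and 261645 (P1 female), which at P1 is below the liver sums. The share of liver RNA in the early libraries was not tested.

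The genes lie on 7 chromosomes of GRCm38 (mm10), the build named in the submitters' processing notes, with coordinates from GENCODE M21. Frzb is at chr2:80411970-80447625 on the minus strand. Sfrp2 is at chr3:83766321-83774316 and Dkk2 at chr3:132085292-132180304, both on the plus strand. The exons of 1 of the 9 genes overlapped another gene in that annotation, with 224 shared bases between Sfrp2 and Gm26771, and since the use of strand in counting is not given in the sources used here, reads from that stretch cannot be told apart. Between the longest protein-coding transcripts of the 36 pairs of these genes, the longest identical run was 38 bases (Sfrp1 and Dkk1).

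RefSeq start-site windows on GRCm38.p6 matched 6 of the 9 genes by symbol. Sfrp2, Dkk2 and Sfrp5 are shown because RefSeq and GENCODE place their starts at the same base and because they cover different age courses: Sfrp2 fell at each postnatal step, Dkk2 fell by 2 weeks, and Sfrp5 passed no age test. Each sequence is the 250 bases before the start site, read in the direction of transcription, and capitals mark a match to TATAAA, the TATA box core. They are chr3:83766071-83766320 (plus strand), chr3:132085042-132085291 (plus strand) and chr19:42202253-42202502 (minus strand).
Sfrp2: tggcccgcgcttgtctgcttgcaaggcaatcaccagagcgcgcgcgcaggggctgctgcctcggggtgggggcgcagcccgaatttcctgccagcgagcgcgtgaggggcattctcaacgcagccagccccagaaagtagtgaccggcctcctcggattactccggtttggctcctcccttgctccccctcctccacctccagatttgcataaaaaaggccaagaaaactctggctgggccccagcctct
Dkk2: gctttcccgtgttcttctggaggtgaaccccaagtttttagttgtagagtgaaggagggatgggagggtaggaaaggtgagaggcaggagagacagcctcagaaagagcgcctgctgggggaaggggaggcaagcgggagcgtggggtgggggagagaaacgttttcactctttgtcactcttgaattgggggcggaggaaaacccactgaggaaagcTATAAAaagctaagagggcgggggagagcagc
Sfrp5: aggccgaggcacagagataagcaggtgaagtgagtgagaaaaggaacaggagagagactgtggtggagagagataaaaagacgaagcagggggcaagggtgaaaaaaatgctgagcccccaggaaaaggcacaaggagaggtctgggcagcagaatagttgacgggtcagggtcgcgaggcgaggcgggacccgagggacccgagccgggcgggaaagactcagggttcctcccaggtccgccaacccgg
TATAAA was present 32 bases before the start of Dkk2, and on both strands it was absent from the Sfrp2 and Sfrp5 windows. It occurred in 12.4% of 32851 windows of this length. CTTTGAT, a TCF/LEF core through which beta-catenin acts, was found in 0 of the 6 windows of these genes and in 3.20% of all windows. AAGGTCA, bound by steroidogenic factor 1 (Nr5a1), the cortical master regulator, was in 0 of 6 and in 4.08% of all. The palindromic response element recognised by androgen and glucocorticoid receptors was in 0 of 6 and in 3 windows (0.00913%) overall. The motifs were searched on both strands, and none contains another. For Frzb the RefSeq start lies 229 bases inside the GENCODE start, so most of its 250-base window is transcribed in the second annotation. For Dkk1 and Wif1 it lies 169 and 44 bases inside, so part of each window is transcribed too. The counts over the 6 windows include these. The GC content was 63.6% for Sfrp2, 55.6% for Dkk2, 59.6% for Sfrp5 and 64.4% for Frzb, against a median of 52.4% over all windows.

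Frzb, which binds Wnts and keeps them from Frizzled, had the widest range of the 9 genes in normalized counts. It stood at 2027 normalized counts in the E18.5 pool, at 1954 (male) and 1089 (female) on P1, at 3903 and 3748 at 2 weeks, and at 74.1 and 8345 at 12 weeks. Normalized counts are reads divided by a size factor per library, and 1 read is worth between 0.818 and 1.40 of them. Its highest and its lowest value were thus the female and male pools of the same age. The 12-week female level was 113-fold the male level (95% counting interval 86.0 to 150.5), from 7376 and 53 reads. Such intervals hold for counting error alone, because reads that carry no molecular identifier may be copies of one molecule, and they say nothing of the spread between animals.

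The Frzb divergence at 12 weeks was made of opposite changes from 2 weeks. In males the 2-week level was 52.7-fold the 12-week level (40.2 to 70.4). In females the 12-week level was 2.23-fold the 2-week level (2.14 to 2.31). At 2 weeks the pools differed by 1.04-fold (0.998 to 1.09, male over female), within counting error. At P1 the male pool was higher, by 1.79-fold (1.66 to 1.93). From E18.5 to P1 male the ratio was 0.964 (0.910 to 1.02), whereas P1 female was at 0.537 (0.499 to 0.579) of E18.5.

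**Figure D1:**
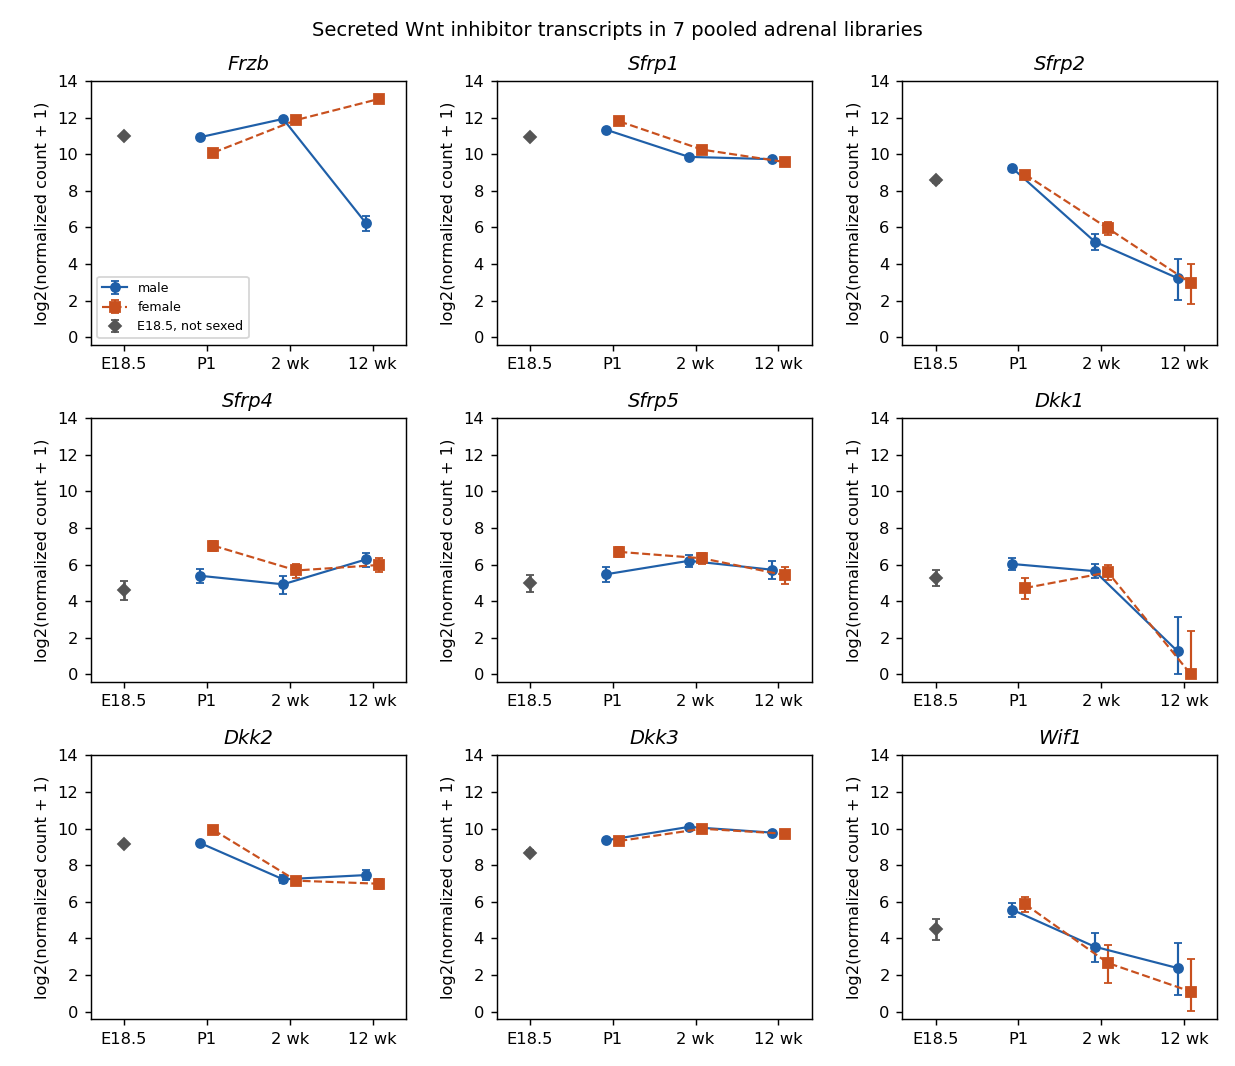
Levels of the 9 genes in the 7 libraries, as log2(normalized count + 1) on the vertical axis against age, with males as circles, females as squares and the unsexed E18.5 pool as a diamond. Bars are exact Poisson 95% counting intervals, and each point is 1 pooled library. At 12 weeks Frzb is at 74.1 (male) and 8345 (female) normalized counts, the widest gap in normalized counts between pools of the same age among the 9 genes.

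Averaged over the sexes, the log2 difference of Frzb between P1 and 2 weeks was 1.39 ± 1.65 (SE, adjusted p = 0.604 in limma). That fit had 6 libraries, with sex as a block and 2 residual degrees of freedom. Its error thus takes in the 12-week values that chose the genes, so this p-value cannot decide whether Frzb changed by 2 weeks. Between single libraries the log2 change was 0.998 in males and 1.78 in females, each a rise beyond counting error. The fitted difference was again 1.39 without 12-week male or without 12-week female, and -0.72 without P1 female. The later steps compare the 12-week values themselves and are given without a test. Between P1 and 12 weeks the log2 difference was -0.88 in limma and 0.72 in edgeR on the recovered reads, 2.74 without 12-week male and -4.51 without 12-week female.

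Frzb also set the make-up of the family. Set per kilobase of merged exon, so that genes of different length can be compared, Frzb was at 626 normalized counts per kb in the E18.5 pool, at 1206 (male) and 1158 (female) at 2 weeks, and at 22.9 and 2578 at 12 weeks. Its share of the 9 genes' summed level per kb was 39.7% in the E18.5 pool, 31.5% (male) and 17.3% (female) on P1, 64.5% and 61.6% at 2 weeks, and 3.97% and 83.8% at 12 weeks. The other 8 genes together had 554 normalized counts per kb in 12-week male and 499 in 12-week female, and from 663 to 723 at 2 weeks. In 12-week male Dkk3 was the first in this order, with 45.2% of the sum, followed by Sfrp1 with 33.7%. In 12-week female the next after Frzb were again Dkk3 (8.12%) and Sfrp1 (5.66%).

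**Figure D2:**
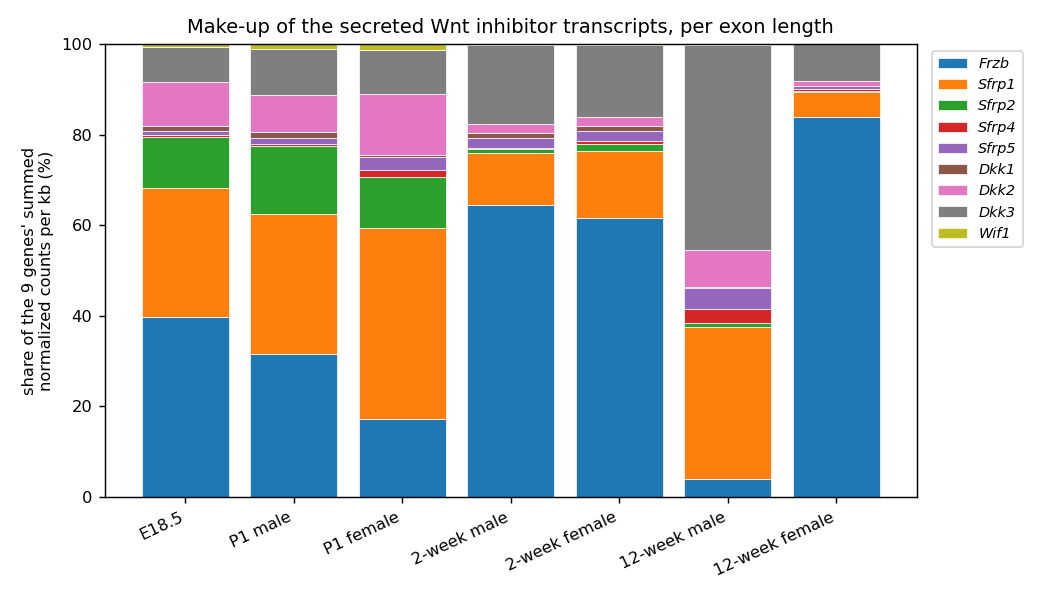
Share of each gene in the summed normalized counts per kb of the 9 genes, in percent, for each of the 7 libraries; each bar is 1 library and adds up to all 9 genes. Frzb takes 83.8% in 12-week female and 3.97% in 12-week male, where Dkk3 takes 45.2%.

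Markers of the X-zone moved with Frzb at 12 weeks. Akr1c18, a steroid-reducing enzyme that marks the X-zone, had 2.80 normalized counts (2 reads at 1.40 each) in 12-week male and 773.9 in 12-week female. Pik3c2g, a lipid kinase and the other marker on that list, was at 0 reads in 12-week male and at 28.3 normalized counts in 12-week female. At 2 weeks, where Frzb was alike in the pools, Akr1c18 was 5346 in males and 26949 in females, and Pik3c2g 60.5 and 500.2. The summed level of the list over all libraries ran from 2.80 in 12-week male to 27450 in 2-week female, and its defining marker Pik3c2g was at 0 in 12-week male alone. From 2-week female to 12-week female the sum of the list was 27450 and 802.1, while Frzb was 3748 and 8345. The part of X-zone cells in the Frzb values was not tested.

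The genes nearest to Frzb in pattern were ranked by the root mean square difference between profiles of log2(normalized count + 1) over the 7 libraries, each centred on its own mean, among 12255 genes whose mean reached 100 normalized counts. They were 4930486L24Rik (0.84), Nrep (1.07), Elfn1 (1.16), Nr0b1 (1.21) and Sik1 (1.25). Frzb itself varied by an SD of 2.03 on this scale, so these are the nearest genes and not close copies. Nr0b1 encodes DAX-1, a nuclear receptor that represses steroidogenic factor 1, and had 46.1 normalized counts in 12-week male and 349.6 in 12-week female. Sik1, a kinase induced by ACTH signalling, had 257.3 and 1437, and Nrep 232.1 and 3293. All 5 were lower in 12-week male than in the other 6 libraries. This follows largely from the ranking, because Frzb itself was lowest there, and it is no separate result. Spearman rank correlation with Frzb over the 7 libraries was 0.714 for 4930486L24Rik, 0.25 for Nrep, 0 for Elfn1, 0.821 for Nr0b1 and 0.893 for Sik1. The points share libraries and scaling, so the ranking is a description.

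**Figure D3:**
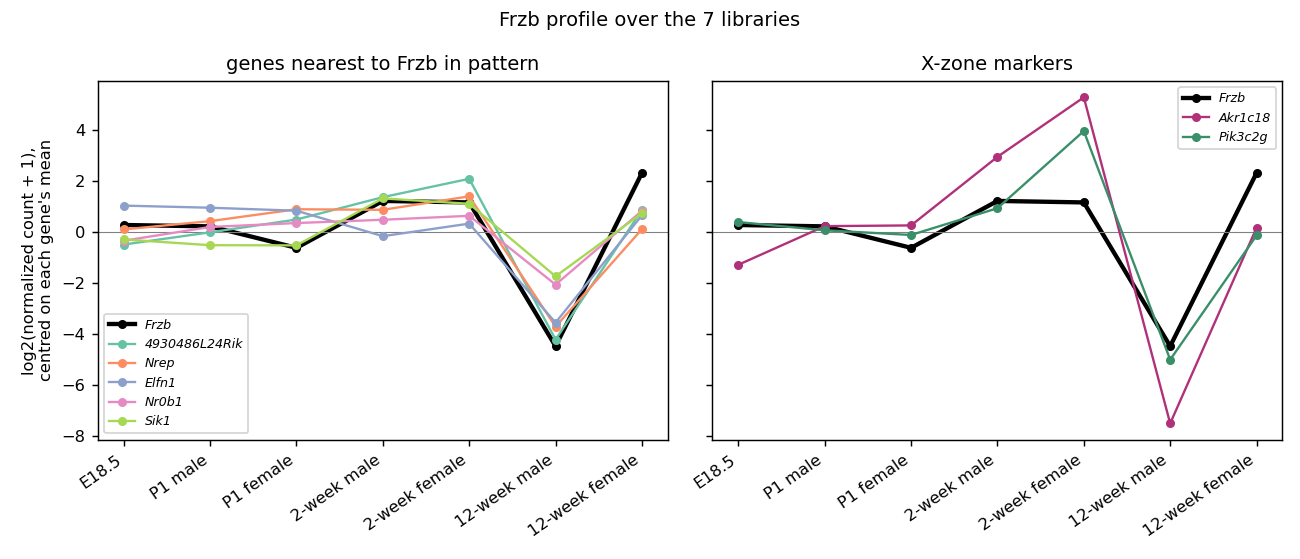
Profiles of Frzb (thick black line), the 5 genes nearest to it (left) and the X-zone markers Akr1c18 and Pik3c2g (right), as log2(normalized count + 1) centred on each gene's mean, over the 7 libraries in order. All lines have their lowest point in 12-week male, which for the 5 nearest genes follows largely from their choice by likeness to Frzb. Both X-zone markers peak in 2-week female, where Frzb does not.

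Among the other Frizzled-related genes, Sfrp1 and Sfrp2 fell with age. Sfrp1, a widely expressed Wnt antagonist of mesenchyme, stood at 1974 normalized counts in the E18.5 pool, at 2596 (male) and 3561 (female) on P1, at 926.0 and 1218 at 2 weeks, and at 850.1 and 761.4 at 12 weeks. Its 4 values from 2 weeks on lay below its 3 earlier ones. It fell by 1.52 ± 0.191 (SE) on the log2 scale between P1 and 2 weeks (adjusted p = 0.00559 in limma). Between P1 and 12 weeks it fell by 1.92 ± 0.191 (adjusted p = 0.000689 in limma). With no filter on low genes the first fall was not called (adjusted p = 0.08925 in limma), while the second was (0.0277). With 1 library left out the first log2 difference of Sfrp1 ran from -1.685 to -1.347. Between 2 and 12 weeks its log2 difference was -0.40 (adjusted p = 0.202), but without 12-week male it was -0.69 and called (adjusted p = 0.0357).

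Sfrp2, which is typical of fetal and wound-associated fibroblasts, was nearly gone from the adult libraries. It stood at 382.3 normalized counts in the E18.5 pool, at 616.2 (male) and 474.6 (female) on P1, at 36.5 and 60.9 at 2 weeks, and at 8.39 and 6.79 at 12 weeks. The 3 postnatal ages formed 3 levels that did not overlap, and the 12-week values rest on 6 reads in each library. Sfrp2 fell by 3.49 ± 0.372 (log2, SE) by 2 weeks (adjusted p = 0.00363 in limma). It fell by 2.49 ± 0.372 between 2 and 12 weeks (adjusted p = 0.00851), and the whole difference between P1 and 12 weeks was -5.99 ± 0.372 (adjusted p = 0.000173). It passed the filter on low genes through the earlier libraries, and with no filter the falls by 2 weeks and between 2 and 12 weeks were not called (adjusted p = 0.0817 and 0.104), while that between P1 and 12 weeks was (0.0231). The second step was also no longer called without P1 male (adjusted p = 0.0549), without P1 female (0.0536) or without 2-week female (0.0931).

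Sfrp4 and Sfrp5 were expressed at a low level throughout and passed no age test. Sfrp4, an antagonist linked to bone and fat biology, stood at 23.5 normalized counts in the E18.5 pool, at 40.9 (male) and 130.2 (female) on P1, at 29.4 and 50.3 at 2 weeks, and at 76.9 and 62.2 at 12 weeks. Sfrp5, an antagonist also secreted by fat tissue, stood at 31.1 in the E18.5 pool, at 43.4 (male) and 102.7 (female) on P1, at 72.9 and 80.3 at 2 weeks, and at 51.7 and 41.9 at 12 weeks. For each of them P1 female was the highest library and E18.5 the lowest. The log2 differences between ages lay between -0.91 and 0.83, with adjusted p from 0.241 to 0.905 in limma. For Sfrp4 the single exception came from leaving out 12-week female, after which the difference between 2 and 12 weeks was 1.58 (adjusted p = 0.0314).

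The Dickkopf genes took 3 separate courses. Dkk1, a potent blocker of Lrp5 and Lrp6, stood at 37.8 normalized counts in the E18.5 pool, at 64.6 (male) and 25.4 (female) on P1, and at 48.9 and 46.8 at 2 weeks. In 12-week male it had 1 read (1.40 normalized counts), and in 12-week female it had 0 reads, which allows a level of up to 3.39 at a floor of 3 reads (the plotted two-sided Poisson limit is 4.17). The 2-week and 12-week values did not overlap. Dkk1 fell by 4.98 ± 0.531 (log2, SE) between 2 and 12 weeks (adjusted p = 0.00292 in limma), a size that depends on the pseudocount of 1. Dkk1 passed the filter on low genes through the earlier libraries, and with no filter this fall was not called (adjusted p = 0.0935). Between the libraries themselves the 2-week level was 35-fold the 12-week level in males (6.02 to 1407 from counting error) and at least 13.8-fold higher in females, against a floor of 3 reads in the library (the two-sided counting interval starts at 10.8). Between P1 and 2 weeks the log2 difference was 0.23 (adjusted p = 0.805).

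Dkk2, which shares the Lrp5 and Lrp6 target, fell earlier. It stood at 573.9 normalized counts in the E18.5 pool, at 590.0 (male) and 966.9 (female) on P1, at 148.6 and 141.2 at 2 weeks, and at 174.8 and 125.6 at 12 weeks. The earlier 3 libraries were all above the later 4, which were close to each other. It fell by 2.37 ± 0.300 (log2, SE) between P1 and 2 weeks (adjusted p = 0.00571 in limma). With no filter on low genes this fall was not called (adjusted p = 0.0940 in limma). With 1 library left out this log2 difference ran from -2.868 to -1.882. Between 2 and 12 weeks the log2 difference was 0.03 (adjusted p = 0.955 in limma).

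Dkk3, the divergent Dickkopf protein, went the other way. It stood at 411.7 normalized counts in the E18.5 pool, at 653.0 (male) and 638.0 (female) on P1, at 1089 and 1014 at 2 weeks, and at 876.6 and 839.5 at 12 weeks. E18.5 was the lowest, the P1 pools came next and the 2-week pools were the highest. Dkk3 rose by 0.70 ± 0.145 (log2, SE) between P1 and 2 weeks (adjusted p = 0.0231 in limma). Dkk3 was no longer called at this step without the trend in eBayes (adjusted p = 0.0694 in limma) or with no filter on low genes (0.0817). Its male-over-female ratios were 1.02 (0.918 to 1.14) at P1, 1.07 (0.990 to 1.17) at 2 weeks and 1.04 (0.937 to 1.16) at 12 weeks, each within counting error.

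Wif1 stood at 21.8 normalized counts in the E18.5 pool, at 46.6 (male) and 57.4 (female) on P1, at 10.7 and 5.29 at 2 weeks, and at 4.19 and 1.13 at 12 weeks. The P1 pools were the highest, and the 12-week values rest on 3 and 1 reads. Wif1 fell by 2.62 ± 0.588 (log2, SE) between P1 and 2 weeks (adjusted p = 0.0300 in limma) and its difference between P1 and 12 weeks was -3.99 ± 0.588 (adjusted p = 0.00289). The fall between P1 and 2 weeks was not called with a pseudocount of 0.1 (adjusted p = 0.0518) or with no filter on low genes (0.1235), which Wif1 passed through the earlier libraries. The difference between P1 and 12 weeks was called with no filter (0.0371).

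**Figure D4:**
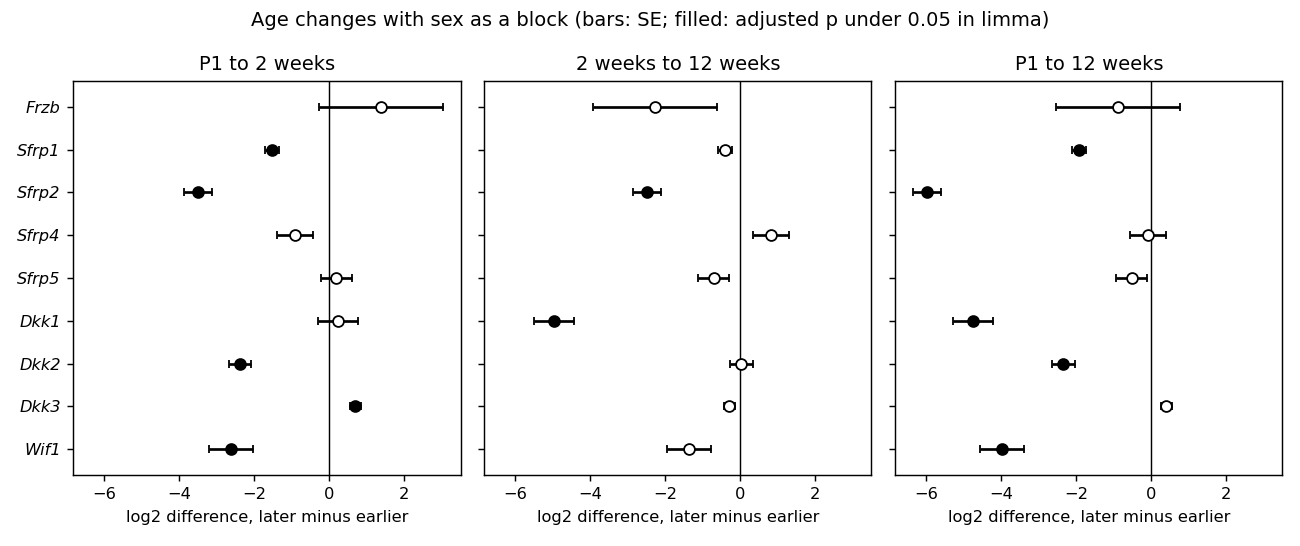
Log2 differences between ages (later minus earlier) of the 9 genes in limma over the 6 postnatal libraries with sex as a block; bars are standard errors, and filled points have an adjusted p under 0.05. Sfrp2 falls in each panel, Dkk1 falls in the second and the third, and Frzb has the widest bars.

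Counted over the family, 1 of the 9 genes rose and 4 fell between P1 and 2 weeks, where 16.4% of all 16720 genes tested changed (5.89% rose and 10.5% fell). Between 2 and 12 weeks 0 rose and 2 fell in limma (edgeR gave the same counts), where 15.3% of all genes changed, 5.4% up and 9.89% down (903 and 1654 genes, or 647 and 2515 with libraries scaled to equal totals). Between P1 and 12 weeks 0 rose and 5 fell in limma and in edgeR, where 41.2% of all genes changed (17.6% up and 23.5% down). The median log2 difference was -0.91, -0.71 and -1.92 for the 9 genes in these comparisons, and 0.00, -0.03 and -0.03 for all genes. Sfrp2, Dkk1 and Wif1 had under 10 normalized counts in both 12-week libraries and passed the filter on low genes through the earlier ones, so these counts and medians are a description.

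Without the library labelled P1 female, the same 5 genes fell between P1 and 12 weeks. Between P1 and 2 weeks 0 of the 9 then passed in limma, although 5 had an unadjusted p under 0.05, and 28 of all genes passed in place of 2737. The log2 differences of Sfrp1, Sfrp2, Dkk2, Dkk3 and Wif1 were -1.35, -3.79, -1.88, 0.73 and -1.93 there, with adjusted p from 0.0679 to 0.147. Leaving out P1 male or 2-week male also left 0 of 9, with 6 and 5 under an unadjusted p of 0.05, and leaving out 2-week female left Sfrp1 and Sfrp2.

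Fibroblast and capsule genes fell along with these genes. Of the 10 markers on that list, 7 fell between P1 and 2 weeks, 4 between 2 and 12 weeks and 10 between P1 and 12 weeks in limma, and none rose, with 0 of 10 at 0 reads in any library. Their summed level was 177742 (male) and 196134 (female) normalized counts at P1, 49066 and 52962 at 2 weeks, and 21316 and 18738 at 12 weeks. Without P1 female 0, 3 and 6 of the 10 fell. Between P1 and 12 weeks all 8 skeletal muscle, all 8 kidney and all 8 liver markers and 5 of 7 Schwann cell markers also fell (6, 8, 8 and 3 without P1 female), and 8 of 8 adipocyte markers rose (7 without). Of all genes, 10.5% fell between P1 and 2 weeks and 9.89% between 2 and 12 weeks. Between P1 and 12 weeks 23.5% of all genes fell and 17.6% rose. Of the 8 kidney markers, 7 had 0 reads in 12-week male and 6 in 12-week female. Such markers passed the filter on low genes through the earlier libraries, so these marker counts are a description. The part of the cells named here in the falls of Sfrp1, Sfrp2, Dkk1, Dkk2 and Wif1 was not tested.

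Nearest neighbours in pattern were found for the other members whose mean reached 100 normalized counts by the same measure. For Sfrp1 the nearest was Tpm1, a tropomyosin (0.0771 root mean square difference). For Sfrp2 they were Itm2a (0.310) and Slc2a2 (0.318), and for Dkk2 they were Mttp (0.238) and Gpm6a (0.238). For Dkk3 they were Mcur1 (0.105) and Oxld1 (0.107). Each of these 4 members had its nearest genes at smaller distances than Frzb, whose nearest was at 0.84.

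The sexes were then compared at each age, with 1 pool per sex and no test. At 12 weeks 3 of the 9 genes were at least 2-fold apart, against 8.83% of all genes (4.84% higher in males and 3.98% in females). Only Frzb among them had more than 3 reads in each pool, and the set was chosen by its gap. Dkk1 (1 and 0 reads) and Wif1 (3 and 1 reads) rest on 3 reads or fewer in each pool. The count of 3 can therefore not be read against the share of all genes. Of the remaining 6, Dkk2 was 1.39-fold higher in 12-week male (1.07 to 1.81), and the intervals of Sfrp1, Sfrp2, Sfrp4, Sfrp5 and Dkk3 included equal levels. That interval was wide for Sfrp2, 0.330 to 4.62 around a ratio of 1.24.

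At 2 weeks 0 of the 9 genes were at least 2-fold apart, against 4.24% of all genes (0.568% higher in males and 3.67% in females). Sfrp1 was lower in males at 0.760 of the female level (0.701 to 0.824), Sfrp2 at 0.599 (0.397 to 0.894) and Sfrp4 at 0.584 (0.368 to 0.912). The other 6 lay within counting error of equal levels. The 2-week female pool also held more skeletal muscle transcript, with 11691 normalized counts over the 8 markers against 306.9 in males. All 8 liver markers were at least 2-fold higher there too, with sums of 41802 and 16955. The part of these tissues was not tested.

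At P1 3 of the 9 genes were at least 2-fold apart, against 6.78% of all genes (3.75% higher in males and 3.03% in females). Dkk1 was higher in P1 male by 2.55-fold (1.58 to 4.25). Sfrp4 was 3.18-fold (2.27 to 4.53) and Sfrp5 2.37-fold (1.67 to 3.38) higher in P1 female. Frzb and Sfrp2 were higher in males and Sfrp1 and Dkk2 in females by less than 2-fold, beyond counting error, while Dkk3 and Wif1 were within it. These differences come with the Y-linked reads in P1 female and the unequal adjoining tissue given above. Of 8 adipocyte markers 6 were at least 2-fold higher in P1 female, such as Adipoq (11.5 in P1 male and 142.4 in P1 female), although their sums, carried by Fabp4 and Plin1, were 2893 and 3065. Of 10 adrenal cortex markers 4 were at least 2-fold higher in P1 male, with sums of 436541 and 261645, and 3 of 6 zona glomerulosa markers were at least 2-fold higher in P1 female. Their part in the P1 values was not tested.

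**Figure D5:**
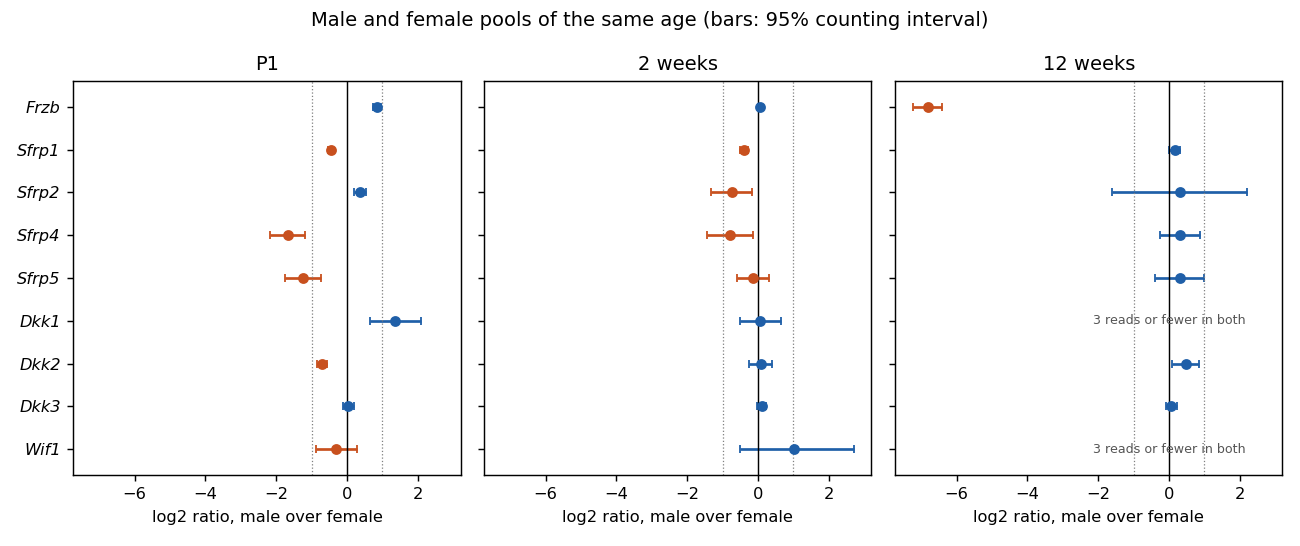
Log2 ratio of male over female normalized counts of the 9 genes at P1, 2 weeks and 12 weeks, with exact binomial 95% counting intervals as bars and dotted lines at 2-fold. Points right of 0 are higher in the male pool; genes with 3 reads or fewer in both pools carry no point. Frzb stands at 113-fold higher in 12-week female.

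The E18.5 pool was set against each P1 library, again without a test. In P1 male 1 of the 9 genes was at least 2-fold higher than at E18.5 and 0 were lower, where 8.4% of all genes were that far apart (4.9% higher and 3.5% lower). In P1 female 3 were higher and 0 lower, where 13.2% of all genes were (7.04% higher and 6.12% lower). Wif1 was 2.14-fold (1.32 to 3.54) higher in P1 male and 2.63-fold (1.61 to 4.38) higher in P1 female. Sfrp4 was 5.54-fold (3.64 to 8.69) and Sfrp5 3.30-fold (2.23 to 4.97) higher in P1 female, whereas in P1 male the ratios were 1.74 (1.07 to 2.87) and 1.40 (0.90 to 2.18). Both comparisons share the E18.5 library. In P1 female 6 of 8 adipocyte and 8 of 8 skeletal muscle markers were at least 2-fold higher than at E18.5 and 6 of 10 adrenal cortex markers lower. In P1 male 8 of 8 kidney, 7 of 7 tested pancreas and 6 of 8 muscle markers were higher and 1 of 10 cortex markers lower. The part of these tissues was not tested.

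The rest of the Wnt pathway was read from lists of ligands, receptors, R-spondins, other antagonists, intracellular components and targets. Of all genes tested, 5.89% rose and 10.5% fell between P1 and 2 weeks, and 5.4% and 9.89% between 2 and 12 weeks. Between P1 and 12 weeks 17.6% rose and 23.5% fell. The lists are short, so counts from each of them are a description beside these shares. Of 11 tested Wnt ligands, 0 rose and 3 fell between P1 and 2 weeks and 1 rose and 5 fell between P1 and 12 weeks in limma, while between 2 and 12 weeks 0 changed. Wnt2b rose by 0.62 ± 0.150 (log2, SE, adjusted p = 0.0176 in limma) between P1 and 12 weeks, and Wnt2 (-3.72), Wnt11 (-3.66) and Wnt10b (-3.57) fell most. At 12 weeks Wnt2 had 12.6 (male) and 2.26 (female) normalized counts, Wnt11 11.2 and 2.26, and Wnt10b 1.40 and 2.26. Wnt2, Wnt11 and Wnt10b passed the filter on low genes through the earlier libraries, so their falls are a description. Wnt4, the main Wnt of the zona glomerulosa, had 1169 normalized counts at E18.5, from 1273 to 2517 in the 4 libraries of P1 and 2 weeks, 1194 in 12-week male and 1947 in 12-week female. Without P1 female 0 ligands changed between P1 and 2 weeks and 1 fell between P1 and 12 weeks.

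All 18 receptors and co-receptors were tested, and 41.2% of all genes changed between P1 and 12 weeks. Between P1 and 12 weeks 1 rose and 8 fell in limma (1 and 7 without P1 female). Lgr5, an R-spondin receptor, rose by 1.04 on the log2 scale (adjusted p = 0.0103), and the Frizzled gene Fzd2 (-2.27) and the receptor tyrosine kinases Ror1 (-1.39) and Ror2 (-1.33) fell most. Lgr6, another R-spondin receptor, rose by 2.82 between P1 and 2 weeks (adjusted p = 0.00749) and then changed by -3.99 between 2 and 12 weeks (adjusted p = 0.00238), with 72.8 and 48.6 normalized counts at P1, 416.3 and 433.2 at 2 weeks, and 18.2 and 36.2 at 12 weeks. Without P1 female 0 receptors passed between P1 and 2 weeks, Lgr6 included, and 2 fell between 2 and 12 weeks. Lrp6, the co-receptor that Dkk1 and Dkk2 bind, lay between 5984 and 8717 normalized counts in all libraries.

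Of the 3 tested R-spondins, which amplify Wnt signals, Rspo3 rose by 1.16 between P1 and 12 weeks (adjusted p = 0.0169 in limma), while Rspo2 (-2.70) and Rspo1 (-1.46) fell. Without P1 female 1 rose and 0 fell. Rspo3, the R-spondin of the capsule, had 1959 and 1736 normalized counts at 12 weeks and 405.0 at E18.5. Rspo2, at 4.19 (male) and 2.26 (female) at 12 weeks, passed the filter on low genes through the earlier libraries, so its fall is a description. The 8 other antagonists tested held 2 that rose and 2 that fell between P1 and 2 weeks, 0 and 2 between 2 and 12 weeks, and 0 and 4 between P1 and 12 weeks. Notum, an enzyme that inactivates Wnts, rose by 1.92 by 2 weeks (adjusted p = 0.0484), Apcdd1 rose by 1.12 and then fell by 1.53, and Sostdc1 fell at each step, by 2.79 and 3.44. Sostdc1, at 6.99 (male) and 1.13 (female) normalized counts at 12 weeks, also passed the filter through the earlier libraries. Without P1 female 0 antagonists passed between P1 and 2 weeks, 1 fell between 2 and 12 weeks, and 1 rose and 3 fell between P1 and 12 weeks.

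Of the 10 target genes of beta-catenin, 0 passed between P1 and 2 weeks in limma, 1 fell between 2 and 12 weeks (Nkd1, -1.13, adjusted p = 0.0227) and 1 fell between P1 and 12 weeks (Bmp4, -0.73, adjusted p = 0.0369), and without P1 female 0 passed in any of the 3 comparisons. Of 13 intracellular components, 2 fell between P1 and 2 weeks (Tcf7l1 and Tcf7l2), 0 changed between 2 and 12 weeks, and 2 rose and 4 fell between P1 and 12 weeks, and without P1 female 0 passed in any of the 3. At 12 weeks 0 of the 10 targets were at least 2-fold apart between the pools, where 8.83% of all genes were. A count of 0 among 10 genes is near that share, so it is no result about the targets. Whether the Frzb level bore on them was not tested. Axin2, the standard readout of the pathway, had 1012 normalized counts in 12-week male and 639.2 in 12-week female, Lef1 159.4 and 219.5, and Nkd1 433.4 and 596.2. Among tested ligands, Wnt9b (25.2 and 4.53), Wnt2 (12.6 and 2.26) and Wnt11 (11.2 and 2.26) were at least 2-fold higher in 12-week male, each at a low level. Among antagonists Sostdc1 (6.99 and 1.13) was higher in 12-week male and Draxin (2.80 and 7.92) in 12-week female.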

How the data were processed

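The deposited data are 1 table from 7 pooled libraries. The submitters' processing notes name CASAVA 1.8.2, HISAT2 2.1.0, HTSeq 0.9.1, DESeq2 2.11.40.6 and the build mm10, with no role or order; annotation and use of strand are not given in the sources used here. The deposited values are a signal, normalized counts: whole reads over a size factor of each library. Every value was a whole multiple of 1 step within 0.01 reads. Depth was 15184210 to 23551289 reads per library.

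Genes whose mean reached 10 normalized counts (16720) were tested on log2(value + 1), a scale that understates changes of low genes, with limma 3.58.1 in R 4.3.3 (eBayes with trend, sex as a block, 6 postnatal libraries, two-sided, Benjamini-Hochberg adjustment over all genes tested, threshold 0.05). The labels do not say which animals entered a pool. With 1 library per sex and age, p-values rest on how far the male and female age courses of these pools departed from each other. A gene whose age course differs by sex thus gets a large error. A missing call does not mean that such a gene stayed level in either sex. Single libraries were compared by ratio, with exact binomial (Clopper-Pearson) 95% intervals from scipy 1.17.1, and a 2-fold limit. Zero counts were limited at 3 reads. Alternatives were other pseudocounts, filters, scalings, no trend, edgeR 4.0.16 on recovered reads, and leaving out each library. The scripts were tested on simulated data.

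All 9 members were described. Pathway genes named are up to 3 per list, direction and comparison that passed, up to 3 per list that were 2-fold apart at 12 weeks, and the nearest 5 (Frzb) or 2 genes in pattern, of which 1 is not reported here; Wnt4, Rspo3, Lrp6, Axin2, Lef1 and the 12-week Nkd1 values were chosen after their values were seen. Members and lists were chosen with earlier results of these data known.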

Additional observations from a re-analysis of the deposited data

Results flagged for a closer look

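Frzb went in opposite directions in males and females, which set it apart without a test of the difference, as each sex had 1 pool per age. Its log2 change between 2 and 12 weeks was -5.70 in males and 1.15 in females, a difference of -6.85. Between P1 and 12 weeks it was -4.70 and 2.94, a difference of -7.64. The male-minus-female difference was 0.84 at P1 and -6.80 at 12 weeks, 7.64 apart. Frzb was chosen for this divergence, so these values describe it only.

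Sfrp2, Sfrp4 and Dkk2 also had effects of opposite sign, each beyond counting error and also not tested as a difference. For Sfrp2 the male-minus-female log2 difference was 0.38 at P1 and -0.72 at 2 weeks, 1.10 apart. For Sfrp4 the log2 change between P1 and 12 weeks was 0.89 in males and -1.05 in females, a difference of 1.95. For Dkk2 the male-minus-female difference was -0.71 at P1 and 0.47 at 12 weeks, which is -1.19 between the ages. All 3 involve the library labelled P1 female, which held Y-linked transcripts.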

How the results depend on the processing

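Of 372 alternative values of the members' age changes, 321 had the same sign and call. With the same sign, 30 lost the call and 6 gained it, and 15 changed sign, whatever their call. These counts include Frzb, whose fits rest on the 12-week values that chose it. The 5 falls between P1 and 12 weeks were called under every alternative that tested them. Dkk1 and Wif1 were not tested at a mean of at least 50. The alternatives reuse the same libraries, and Sfrp2, Dkk1 and Wif1 passed the filter on low genes through the earlier ones. That the 5 falls stayed called is thus no separate support. Of 180 values between single libraries, 177 stayed within counting error and 0 reversed.

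With all genes above 0 tested, 0 genes in limma changed between P1 and 2 weeks (6431 at an unadjusted p under 0.05) and 0 between 2 and 12 weeks (6036). Without a trend the counts were 1672 and 1661, against 2737 and 2557. Leaving out 1 library gave 2 (P1 male) to 4461 (12-week male) genes between P1 and 2 weeks, 421 (2-week female) to 3035 (12-week male) between 2 and 12 weeks, and 3207 (P1 female) to 6271 (12-week male) between P1 and 12 weeks, against 6881. A fit with 1 library left out has 1 residual degree of freedom and assumes the lone pool of that age varies like the others. Equal totals moved the median of all genes to -0.20 between 2 and 12 weeks and -0.15 between P1 and 12 weeks.

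With 1 library left out, these log2 differences, not called with all libraries, changed sign: Frzb, from -0.72 to 3.50 (P1 to 2 weeks), -5.90 to 1.35 (2 to 12 weeks) and -4.51 to 2.74 (P1 to 12 weeks); Sfrp5, from -0.46 to 0.85 (P1 to 2 weeks) and -1.17 to 0.14 (P1 to 12 weeks); Dkk1, from -0.38 to 0.84 (P1 to 2 weeks); Dkk2, from -0.36 to 0.43 (2 to 12 weeks); and Sfrp4, from -0.83 to 0.67 (P1 to 12 weeks). Dkk2 between 2 and 12 weeks was -0.14 with equal totals, and Frzb between P1 and 12 weeks was 0.72 in edgeR. With a pseudocount of 10 the members at least 2-fold apart fell from 3 to 1 between the sexes at 12 weeks and from 1 to 0 from E18.5 to P1 male. A larger pseudocount by itself draws low values together. Dkk1 (1 and 0 reads) and Wif1 (3 and 1 reads) were low in the 12-week pools, and Wif1 had 57 reads in P1 male and 26 at E18.5. The cause of the sign changes was not tested. No paired analysis was possible because each group has 1 library and the labels give no replicate numbers.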
